A study of Drosophila melanogaster with 4 samples.

Results

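MicroRNA (miRNA) genes and the loci that carry them were examined for binding of Chinmo-eGFP in Drosophila melanogaster embryos. The members were all miRNA hairpins, the stem-loops from which mature miRNAs are cut, that the Ensembl annotation BDGP6.54 places on the 6 main chromosome arms. They numbered 260 of the 262 annotated hairpins, and 260 of 17683 genes of all kinds on these arms. The study made chromatin immunoprecipitation sequencing libraries from whole embryos collected at 6 to 24 h, in 4 biological replicates of 1 strain that expresses a fusion of Chinmo and enhanced GFP from a transgene. The description names an antibody against GFP, whereas the antibody field names Chinmo itself. There was no second genotype, treatment or stage, and control libraries were not analysed here. Whole embryos mix all cell types, so a peak does not say in which cells the protein was bound, and the labels do not say how much of the Chinmo in these flies carried the tag.

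Chinmo, a transcription factor of the BTB and zinc finger class, is known to set the temporal identity of neurons and to maintain stem cells of the testis. A miRNA gene is transcribed as a long primary transcript, often over several hairpins at once, or as part of an intron of a host gene. The hairpin is cut out by Drosha, or by the spliceosome for the mirtrons, and Dicer then releases mature strands of about the same length whose bases 2 to 8, the seed, pair with target messenger RNAs. The start site of a primary transcript can lie far from its hairpins, so binding near a hairpin and binding at the start site of its gene are different measures. The let-7 complex is a known part of the timing pathway that includes chinmo, since let-7 and miR-125 lower Chinmo in mushroom body neurons of the fly.

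Mature sequences are shown for miRNAs to which the results below refer, with the seed in capitals. Hairpins with 1 seed turned out to lie both at loci that met the rule for a call given below and at loci that did not. They were read 5′ to 3′ from the RefSeq genome of Release 6 at the annotated positions, and 481 mature strands matched the 260 hairpins. The first 5 share a seed with miR-6 and miR-308, the next pair is the miR-92 family, and miR-279 and miR-996 again share their seed.
miR-2a-1-3p: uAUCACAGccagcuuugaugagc
miR-2b-2-3p: uAUCACAGccagcuuugaggagc
miR-13a-3p: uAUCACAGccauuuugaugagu
miR-2c-3p: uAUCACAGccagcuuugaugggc
miR-11-3p: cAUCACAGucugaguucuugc
miR-92a-3p: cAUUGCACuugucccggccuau
miR-92b-3p: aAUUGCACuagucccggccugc
miR-279-3p: uGACUAGAuccacacucauuaa
miR-996-3p: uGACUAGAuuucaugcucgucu
bantam-3p: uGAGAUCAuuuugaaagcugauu
miR-277-3p: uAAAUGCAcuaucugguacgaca
miR-34-5p: uGGCAGUGugguuagcugguugug
miR-282-5p: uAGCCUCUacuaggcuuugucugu
miR-276a-3p: uAGGAACUucauaccgugcucu
let-7-5p: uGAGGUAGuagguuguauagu

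Windows that reach 50 bases to each side of the summits of 6 bound regions are shown next, on the plus strand, as examples of binding at the start of a non-coding host of hairpins, for the first 4, and of windows near a hairpin with repeated motif matches, for the last 2. Capitals mark matches to the motifs that were searched, and a window without capitals held none of them. The build is dm6.
pri-mir-277/mir-34 start, chr3R:10093563-10093663: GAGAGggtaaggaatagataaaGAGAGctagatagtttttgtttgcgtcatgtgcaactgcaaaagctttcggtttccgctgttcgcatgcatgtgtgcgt
pri-bantam distal start, chr3L:628233-628333: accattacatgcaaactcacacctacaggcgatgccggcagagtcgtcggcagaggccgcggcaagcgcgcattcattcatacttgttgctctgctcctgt
mir-282 host start, chr3L:3250510-3250610: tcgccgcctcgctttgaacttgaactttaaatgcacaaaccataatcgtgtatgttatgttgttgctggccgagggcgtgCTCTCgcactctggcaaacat
pri-mir-276a start, chr3L:10363831-10363931: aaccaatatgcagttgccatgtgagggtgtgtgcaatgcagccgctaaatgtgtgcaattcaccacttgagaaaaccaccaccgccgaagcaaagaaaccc
mir-994 and mir-318, chr3R:10407302-10407402: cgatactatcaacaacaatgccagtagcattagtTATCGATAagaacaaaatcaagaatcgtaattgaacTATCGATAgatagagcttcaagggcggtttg
mir-4943, chr2L:16526153-16526253: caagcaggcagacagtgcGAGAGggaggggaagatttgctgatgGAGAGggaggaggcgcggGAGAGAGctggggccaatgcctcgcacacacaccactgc

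The libraries differed in the number of peaks that the authors' threshold passed. The thresholded lists held 3435, 4415, 2222 and 3038 peaks on the 6 arms for replicates 1 to 4, and replicate 3 stood lowest. The longer ranked lists, which also hold the weaker peaks, had 39707, 27009, 30017 and 34066. Each peak was placed at its summit, and its strength is given as a rank percentile, the share of the library's thresholded peaks with a signal value no higher. Read depth was unknown. A hairpin was called when at least 3 of the 4 libraries had a thresholded summit within 5 kb of its 5′ end.

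A summit lay within 5 kb of 78, 96, 71 and 83 of the 260 hairpins in replicates 1 to 4, which is 31.5% ± 4.06 (SD, n = 4). Of these hairpins, 52 had a summit in all 4 libraries and 147 had none in any. Altogether 75 hairpins were called, or 28.8%. Among all protein-coding genes, measured from the 5′ end of the gene in the same way, 25.2% were called. Other non-coding RNA genes reached 19.6%, and 13.6% of the bases of the arms lay within 5 kb of a summit in at least 3 libraries. The hairpins thus stood close to protein-coding genes at this distance and above the bases of the arms.

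The distance chosen decides how hairpins compare with protein-coding genes. Within 1 kb, 20 hairpins (7.69%) were called, against 11.6% of protein-coding genes. The share of hairpins with a summit within 1 kb minus that of protein-coding genes was -6.03 ± 1.97 percentage points (SD, n = 4), as the mean of the within-library differences, and the hairpins were lower in all 4 libraries. Within 0.5 kb the difference was -8.23 points and within 2 kb -2.32 points, again lower in 4 of 4. Each of these gave p = 0.13 by the exact sign-change permutation test (two-sided). That is the smallest p that 4 libraries allow, so none could pass 0.05. The SD and the test cover variation between libraries over the same hairpins and genes. They do not cover variation among hairpins, and clustered hairpins share peaks. Within 5 kb the difference was 0.94 ± 1.62 points (exact p = 0.5), higher in 2 of 4 libraries, and it was 0.15 points without replicate 3. In the longest list of the whole series the direction turned, with a summit within 5 kb of 56.5% of hairpins and 67.8% of protein-coding genes.

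**Figure D1:**
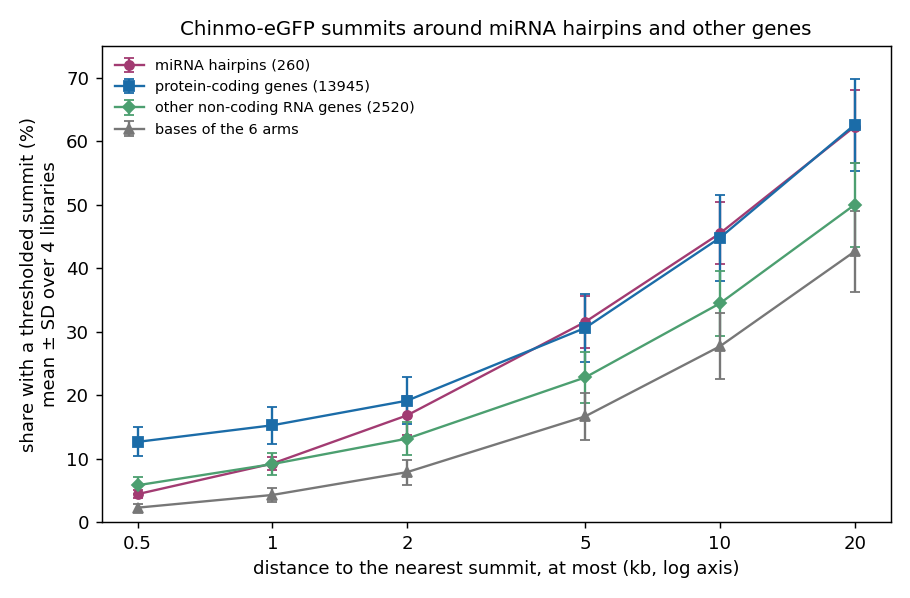
Share of miRNA hairpins, protein-coding genes, other non-coding RNA genes and bases of the arms with a thresholded summit within 0.5 to 20 kb (log axis), as mean ± SD over 4 libraries. The mean of the hairpins lies below that of the protein-coding genes up to 2 kb, with error bars apart at 0.5 and 1 kb and overlapping from 2 kb on. Within 5 kb, 31.5% of hairpins had a summit.

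Many hairpins are close neighbours, so they were also counted as loci. Joining hairpins whose starts lay within 10 kb gave 199 loci, of which 26 held several hairpins and the largest held 12. A thresholded summit in at least 3 libraries was found at 57 loci (28.6%), and at 40 loci in all 4. The called loci ranged in mean rank percentile from 18.6 to 98.9, with a median of 65.8, and 9 reached 90 or more. Here and below, such means are over the libraries that had a summit. A library without a summit was left out and did not lower the mean. At the edge of the window, mir-4972 was called at 4897 bp and mir-998 at 4749 bp, whereas mir-2282 at 5055 bp and mir-966 at 5063 bp were not; these are the third-smallest distances over the 4 libraries.

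Weak peaks near hairpins were common. In the ranked lists, 174 hairpins had a summit within 5 kb in all 4 libraries and 18 had none in any. Of the 185 uncalled hairpins, 99 had a ranked summit in all 4. The share of hairpins with a ranked summit was 81.3% ± 2.92 (SD, n = 4), beside 87.6% ± 3.72 of protein-coding genes and 70.3% ± 6.21 of bases. Hairpins stood below protein-coding genes in these lists, and the thresholded lists are used from here on.

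Calls were fewer among hairpins far from any protein-coding start site. Of the 85 hairpins over 5 kb from any protein-coding start, 10 (11.8%) were called, while 23 of the 63 within 1 kb (36.5%) and 42 of the 112 at 1 to 5 kb (37.5%) were. By loci, the calls were 6 of 63 over 5 kb away, 19 of 55 within 1 kb and 36 of 91 at 1 to 5 kb. A locus with hairpins in more than 1 of these classes was counted in each. For the bases of the arms the shares were 3.40% over 5 kb away, 25.4% within 1 kb and 20.5% at 1 to 5 kb, so both were lowest far from a start site. In each class the hairpins stood above the bases, which was not tested.

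Hairpins inside a protein-coding host on the same strand were called in 38 of 136 cases (27.9%), with 27 of 100 in introns and 11 of 36 overlapping an exon. Hairpins in a non-coding host were called in 13 of 46 cases, those antisense to a gene in 6 of 27, and those between genes in 18 of 51. Counted by hairpins, the X chromosome had the lowest share among the large arms, with 11 of 58 called, and 3R the highest, with 22 of 58. Counted by loci that order did not hold, with 11 of 39 called on X and 14 of 48 on 3R. By loci 3L was lowest, with 8 of 30, and 2R highest, with 13 of 40. Neither of the 2 hairpins of chromosome 4 was called. Differences between these classes were not tested.

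Joining the summits of the libraries gave 2150 regions shared by at least 3 of them, and 80 of these (3.72%) lay within 5 kb of a hairpin start. They lay upstream of the nearest hairpin in 47 cases and downstream in 33, at a median distance of 2234.5 bp. Only 3 lay within 100 bp, 7 within 500 bp and 19 within 1000 bp. Their mean rank percentiles had a median of 62.3, beside 62.2 for all shared regions, and 12.5% of them stood at a percentile of 90 or more, beside 9.67% of all. Regions near hairpins were therefore ordinary in strength.

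Of these 80 regions, 48 (60%) lay within 1 kb of a protein-coding start site, beside 69.6% of all shared regions. Among the 69 hairpins with such a region, 25 had it at a start site of their own host, 30 only at a start site of another protein-coding gene, and 14 at neither. This split counts hairpins, and hairpins of 1 cluster share regions. The region at a qsm start alone lay within 5 kb of 7 hairpins. To which gene a region belongs was not tested.

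**Figure D2:**
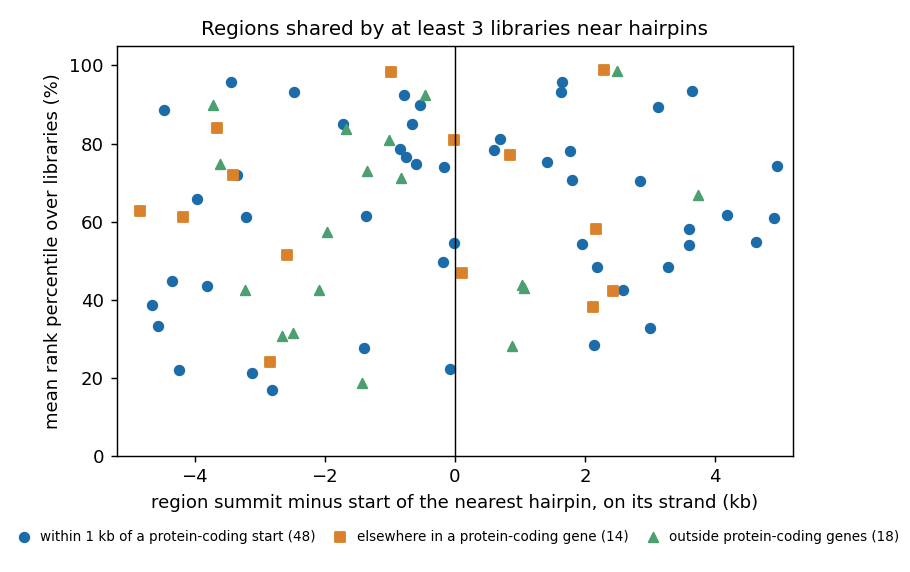
The 80 regions shared by at least 3 libraries within 5 kb of a hairpin, by the distance of their summit from the start of the nearest hairpin on its strand (x, kb; negative is upstream) and their mean rank percentile (y). Symbols give the place relative to protein-coding genes; 47 regions lie upstream and 33 downstream, and strong and weak regions occur on both sides.

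Only 4 hairpins had a thresholded summit within 500 bp in all 4 libraries. The nearest summits lay 52.0 ± 29.0 bp from mir-4962, which sits in an intron of Tlk, the gene of a kinase of chromatin assembly. They lay 97.0 ± 48.2 bp from mir-9377 in an intron of Tis11, the gene of an mRNA decay factor. For mir-3645 in an intron of Mlc-c, a myosin light chain gene, the distance was 172 ± 6.06 bp, and for mir-282 in a non-coding host it was 449.5 ± 21.4 bp (SD, n = 4 libraries each). In the cases of mir-3645 and mir-282 the region lay at a host start site, 46 bp and 34 bp upstream of it. The mir-4962 hairpin had 6 shared regions within 5 kb, the most of any hairpin, and the one at the hairpin had a mean rank percentile of 80.9. The region at mir-9377 lay 4791 bp inside Tis11 and ranked at 46.9.

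The highest-ranked locus was mir-4943, a hairpin in CG5953 at chr2L:16528375-16528491, with rank percentiles of 98.1, 99.0, 99.5 and 98.8 in replicates 1 to 4. Its strongest region lay 2288 bp downstream of the hairpin, inside CG5953 and 6026 bp from its nearest start site, and a weaker one stood at the CG5953 start at 88.5. The locus of mir-317, mir-277 and mir-34 followed, with percentiles of 99.0, 99.4, 97.4 and 98.0. The mir-4978 locus, antisense within mam, which codes for the Notch coactivator Mastermind, reached 98.4 ± 1.32. These 3 loci were within the top few percent of peaks in every library.

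Next came mir-4957, antisense within Top1, the topoisomerase gene, with 95.8 ± 2.86. The pair mir-281-1 and mir-281-2 in Oda, which codes for ornithine decarboxylase antizyme, had 95.7 ± 2.44 from a region 107 bp upstream of an Oda start. The pair mir-994 and mir-318 had 94.3 ± 2.37, and its nearer region at 92.4 lay 67 bp upstream of the start of CG6325. The mir-4962 locus had 93.4 ± 4.65, from a region 3635 bp downstream of the hairpin, inside Tlk and 874 bp from one of its start sites.

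The hairpins mir-92a and mir-92b lie in jigr1, a gene known to be expressed with them in neural stem cells. Their percentiles were 98.4, 98.3, 84.6 and 91.2 in replicates 1 to 4, lowest in replicate 3. The region behind these values lay 53 bp upstream of a jigr1 start site and 1627 bp downstream of mir-92a. A second, weak region at 28.03 lay 881 bp beyond mir-92b.

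The remaining loci of the highest 20 were mostly at promoters of protein-coding genes. At mir-3643 the region was at OstDelta, a gene of the oligosaccharyltransferase, with 89.98 ± 4.25. The percentile of a locus takes the highest summit within 5 kb in each library, which need not be the same region. At mir-4968 the 89.7 ± 3.21 came from different regions within Mob2, the gene of a kinase cofactor. Those regions had mean percentiles of 58.2, 74.7 and 84.0 on their own. At mir-9381 the region was at CG5902 with 89.4 ± 1.24. The hairpins mir-2a-1, mir-2a-2 and mir-2b-2 lie in spi, the gene of the EGF receptor ligand Spitz, with 85.0 ± 8.04. The region at mir-4955 was 136 bp upstream of trol, the Perlecan gene, with 84.9 ± 7.68. Places 15 to 20 were taken by mir-14, mir-980, mir-4981, the mir-310 cluster, mir-4977 in Eaf and mir-3641. They ran from 83.9 ± 11.0 down to 75.3 ± 13.3. The regions at mir-980 and at the mir-310 cluster lay at starts of ewg and qsm. Of the 20 loci, mir-4977 alone was missed by a library, which was replicate 3.

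**Figure D3:**
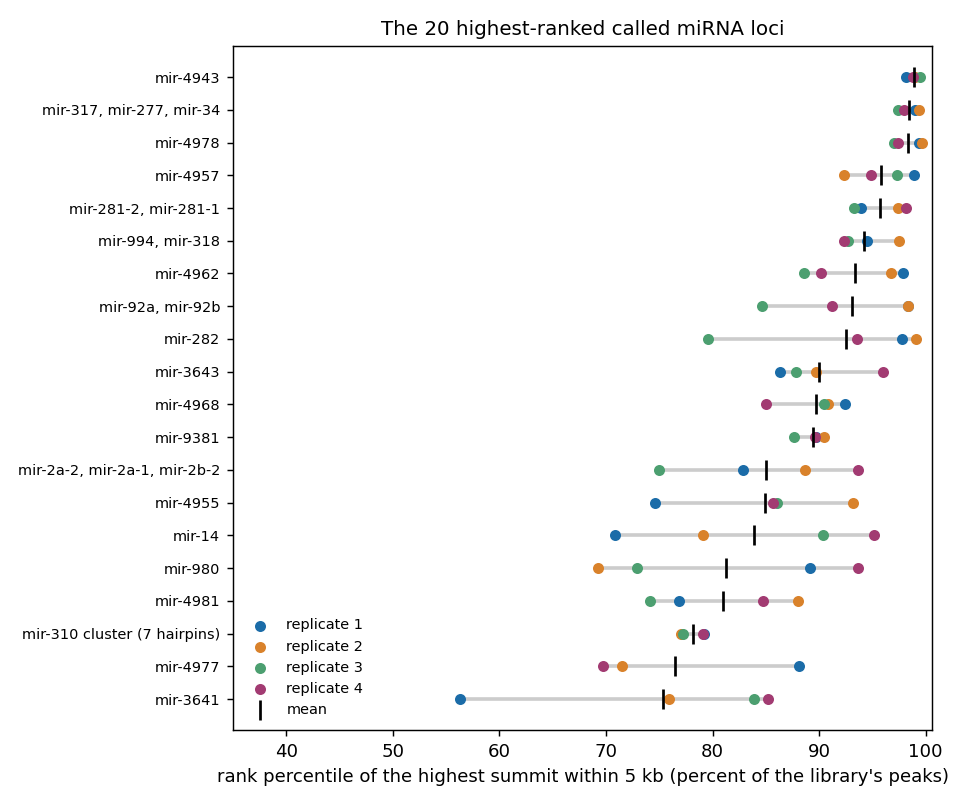
Rank percentile of the highest summit within 5 kb for the 20 highest-ranked called loci (rows), with 1 point per library and the mean as a bar. The first 3 loci are above 97.0 in every library, whereas the last, mir-3641, spans 56.3 to 85.3.

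The start sites of annotated primary transcripts were scored apart from the hairpins. RefSeq synonyms name 24 primary transcripts on the arms, and 6 of them (25.0%) had a thresholded summit within 1 kb of a start site in at least 3 libraries. Among other non-coding RNA genes the share was 7.90%. Primary transcripts were longer, with a median of 5422.5 bp against 706.5 bp, and whether length accounts for the difference was not tested. The 6 were those of bantam, mir-277 with mir-34, mir-8, mir-14, mir-276a and mir-263a. In all, 7 of 37 non-coding hosts were bound in this way, the seventh being the host of mir-282.

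The primary transcript of mir-277 and mir-34, miRNAs linked to amino acid metabolism and to ageing in the fly, had the strongest start region. Its percentiles were 99.0, 99.4, 97.4 and 98.0, and it lay 148 bp upstream of the start of lncRNA:CR43459. The hairpins of mir-277 and mir-34 lay 6409 and 7323 bp downstream of it, outside the window of 5 kb. Both were called, in replicates 1, 2 and 4, through weaker summits at 39.6, 62.8 and 48.7, and mir-317, which lies upstream of the transcript, was called through the strong region. Further regions lay 3720 and 1678 bp upstream of mir-317, at 89.99 and 83.8. The binding within 5 kb of mir-277 and mir-34 was thus weaker than that at their transcript start and around mir-317.

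Bantam, a miRNA that promotes growth and blocks cell death, showed the same arrangement. The primary transcript lncRNA:CR43334 had a region 152 bp upstream of its distal start, with percentiles of 97.5, 97.9, 92.8 and 96.8. That region lay 13925 bp upstream of the hairpin and was not counted by the rule for members. A pair of regions near the proximal start, 3229 and 2663 bp upstream of the hairpin, ranked at 42.4 ± 18.0 and 30.8 ± 21.0. Measured near the hairpin alone, bantam stood at 43.3 ± 17.8, in place 47 of 57 called loci.

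The other bound starts were those of mir-282, mir-14, mir-276a, mir-8 and mir-263a. For mir-282 the region 34 bp upstream of the start of lncRNA:CR43626 had percentiles of 97.8, 99.1, 79.6 and 93.5, lowest in replicate 3. For mir-14, which limits cell death and fat storage, the start region was at 81.0 ± 15.1 and 1018 bp upstream of the hairpin. For mir-276a, which acts in olfactory memory, the start region had 53.0, 64.9, 81.7 and 92.7. The stronger start region of mir-8 had 53.2, 52.1, 92.8 and 86.6. At mir-14, mir-276a and mir-8 alike, replicates 3 and 4 stood above replicates 1 and 2. For mir-263a, which protects sensory bristles, 3 libraries had a start region at 19.5, 81.9 and 47.4, and it lay 17666 bp upstream of the hairpin, which itself was uncalled.

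Other primary transcripts had no such region. The let-7 complex was uncalled in all 4 libraries, both within 5 kb of let-7, mir-100 and mir-125 and within 1 kb of the start of lncRNA:let7C. The nearest summits to that start lay at 6744, 28717, 6721 and 1134 bp. Ranked summits near the hairpins stood at 73.1, 33.1, 31.0 and 47.2 percent of the ranked lists, so weak peaks were present. The starts of the mir-1, mir-124, mir-184, mir-9a and mir-309 cluster transcripts had no thresholded summit within 1 kb in any library. A peak list holds no value for a place with no peak, so these are calls not made, at an unknown depth.

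The protein-coding hosts of hairpins were bound at their start sites more often than protein-coding genes in general. Of 128 host genes, 36 (28.1%) had a thresholded summit within 1 kb of a start site in at least 3 libraries, beside 13.3% of all protein-coding genes. Hosts are long genes, with a median of 14094.5 bp against 2166 bp. In the quartiles of host length the shares were 6.25%, 28.1%, 37.5% and 40.6% of 32 hosts each. For all protein-coding genes of the same lengths they were 7.79%, 23.1%, 30.5% and 32.8%. The hosts stood lower in the shortest class and at most 7.85 points higher in the others, which is under 3 of 32 genes in any class.

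**Figure D4:**
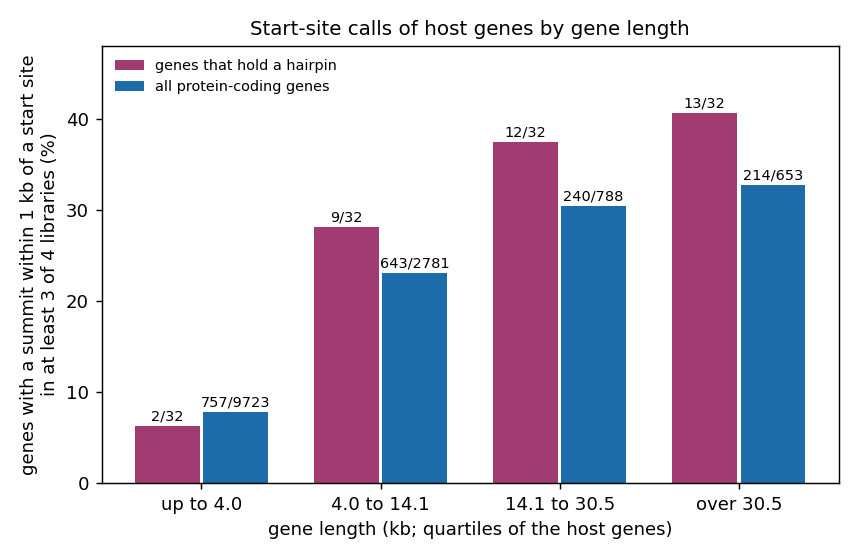
Share of genes with a thresholded summit within 1 kb of a start site in at least 3 of 4 libraries, for the 128 genes that hold a hairpin and for all protein-coding genes, in 4 classes of gene length; labels give bound genes of all genes. In both groups the share climbs with length, from 6.25% to 40.6% in the hosts.

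The strongest host was spi, with percentiles of 98.6, 98.6, 97.2 and 98.1 at its highest-ranked start region. The region nearest to its hairpins was a weaker one, 1721 bp upstream of mir-2b-2. Atet, an ABC transporter gene that holds the mirtron mir-1005, had 97.5 ± 1.56 at its start, while mir-1005 itself was called in 2 libraries and so missed the call. Oda followed with 95.7 ± 2.44, CG3764 with 95.6 ± 0.93 and CG5953 with 95.0 ± 0.86. The homeobox gene hth had 93.5 ± 5.68, and sty, which codes for the receptor tyrosine kinase inhibitor Sprouty, had 91.6 ± 4.44; their hairpins mir-4944 and mir-2282 were uncalled. Other bound hosts with known roles were bun at 88.0 ± 5.60, tup, a LIM homeobox gene, at 86.2 ± 5.08, kis at 77.8 ± 10.4, kuz, the gene of a Notch-cleaving protease, at 72.4 ± 10.3, and the Hippo pathway kinase gene wts at 48.4 ± 13.1 in 3 libraries.

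Groups of miRNAs with known roles differed in their calls, and each count is read beside the 28.8% of all hairpins. The list for growth, survival and metabolism had 11 of 18 hairpins called (61.1%), in 7 of 12 loci. Clusters in spi and on 3R put 3 hairpins each into that count. Its highest values were the 85.0 of mir-2a-1, mir-2a-2 and mir-2b-2, followed by mir-14 at 83.9 ± 11.0. The cluster of mir-13b-1, mir-13a and mir-2c was the weakest of all called loci at 18.6 ± 17.3. Within the list, mir-11 in an intron of E2f1 had 61.3, 92.2 and 30.4 in replicates 1, 2 and 4, and mir-278 and mir-13b-2 were uncalled. The hairpin mir-2b-1 in Btk had summits in 2 libraries and mir-6-1 in none.

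Of 13 hairpins with roles in neurons and sensory organs, 4 were called (30.8%), in 3 of 12 loci. They were mir-276a at 73.1 ± 17.6, mir-8 at 71.2 ± 21.5 and the pair mir-279 and mir-996, which limits the formation of carbon dioxide sensing neurons. That pair had 27.9, 79.8 and 74.7 in replicates 2, 3 and 4 and no summit within 5 kb in replicate 1. The neuronal mir-124 was uncalled, with its nearest summits between 65250 and 82043 bp away, as were mir-137, mir-184 and mir-7. The hairpin mir-276b, whose mature sequences share both seeds with mir-276a, lay 43095 to 44215 bp from the nearest summit. For mir-9a, which restrains sensory organ precursors, a summit at 44.0 was present in replicate 1 alone.

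The timing list had 1 of 4 called, mir-34 at 50.3 ± 11.7 in 3 libraries, and let-7, mir-100 and mir-125 were not. Neither muscle miRNA was called, mir-1 or mir-133. None of 4 hairpins in the Hox complexes was called: mir-10 had summits in 2 libraries, at 43.9 and 19.9, mir-iab-4 and mir-iab-8, which are the 2 strands of 1 place, in 1 library, and mir-993 in none. The cluster around mir-309, which clears maternal messenger RNA in the early embryo, had 0 of 8 called, mir-286 and mir-3 included.

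Among 14 mirtrons, 5 were called (35.7%), with mir-1011 at 70.4 ± 17.8, mir-1004 at 67.4 ± 15.3 and mir-1006 at 58.0 ± 14.3. The region at mir-1011 lay at the start of the neighbouring RpS30 and those at mir-1004 at the neighbouring bowl. The hairpin mir-1006 had a region at the neighbouring Cyt-c-p and a weaker one at the start of its own host VhaSFD, and mir-1005 and mir-1007 were uncalled. The testis-rich clusters had 2 of 20 called (10%), in 1 of 4 loci. Both were members of the mir-310 cluster, mir-991 and mir-992, at 78.1 ± 1.16 through a region 66 bp downstream of a qsm start. The other hairpins of that list, mir-959 and mir-960 among them, had a summit within 5 kb in at most 1 library.

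**Figure D5:**
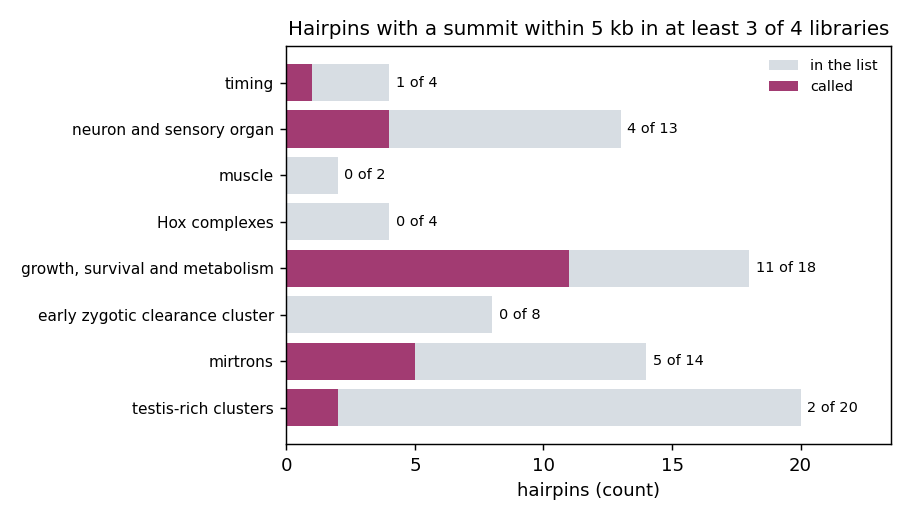
Hairpins with a thresholded summit within 5 kb in at least 3 of 4 libraries (dark) among all hairpins of each list (light), as counts. The list for growth, survival and metabolism has 11 of 18 called, and the muscle, Hox and early zygotic lists have 0.

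Seeds did not sort the hairpins by calls in a uniform way. The seed shared by miR-2, miR-5, miR-6, miR-11, miR-13 and miR-308, AUCACAG in the sequences given above, occurs in 14 hairpins at 7 loci, and 8 hairpins at 4 loci were called. The called loci were those in spi, E2f1 and RpS23 and the cluster of mir-2c. The seed AUUGCAC occurs in 6 hairpins at 2 loci, the miR-92 pair in jigr1 and mir-310 to mir-313, and all 6 were called, in all 4 libraries. Of the 3 hairpins with the seed of miR-279, both at the mir-279 locus were called and mir-286 was not. The 3 hairpins of the miR-9 family, with the seed of miR-9a, were uncalled. Hairpins at 1 locus share their peaks, so these counts rest on the loci.

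In windows of 50 bases to each side of the summit, the 3 most frequent motifs occurred in similar shares near hairpins and in all shared regions. The letters GAGAG, read on both strands and overlapping with themselves in longer repeats, occurred in 22 of 80 windows near hairpins (27.5%) and in 26.6% of all 2150. The letters TATCGATA were in 8 (10%) beside 8.56%, and CAGCTG in 7 (8.75%) beside 8.56%. Among the 10 regions at starts of non-coding hosts, GAGAG was in 5 (50%), including the mir-277 start shown above. The other motifs were rare, with 1 or 2 windows each near hairpins. TTCNNNGAA was in 2 of the 80 windows (2.5%), beside 1.302% of all regions. CACGTG was in 1, beside 2.28% of all regions, as was CAGGTAG, beside 0.512%. The letters TCAAGGTCA were likewise in 1, beside 0.140%, and so were the letters ATGCAAAT, beside 1.21%. A match is a description of the letters and not a site.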

How the data were processed

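The authors deposited, per library, a thresholded and a ranked list of peaks on assembly dm6; per the file headers and labels each peak has a signal value and a score, both the authors' own, whose lowest score in the thresholded lists is 830. The signal deposited by the authors served only to rank peaks within a list; the deposited score was not used further. Aligner and caller: not given in the sources used here. Hairpins are the transcripts of biotype pre_miRNA in Ensembl release 115; 2 off the arms were left out, and 3 peaks of replicate 3 off the arms. Summits of different libraries were joined where their ±100 bp windows met. The only test was an exact permutation over sign changes of the 4 within-library differences. The members, lists and motifs were chosen with earlier results of these data known. Named are the 20 called loci with the highest mean percentile, 26 fixed miRNAs, up to 3 highest and 2 uncalled members of each list, and hairpins with summits within 500 bp in all libraries; other host genes and motif examples were named after their values were seen. Alternatives were other lists, thresholds, windows, library minimums, locus gaps and leaving out each replicate. Replicates are biological per the labels. The scoring returned all planted calls when tested on simulated data. All values were made in Python.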

Additional observations from a re-analysis of the deposited data

Results flagged for a closer look

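Of 59 values with 4 unequal libraries, 4 had 1 library apart from the rest by more than Dixon's 95% critical value for the gap as a share of the range; chance flags about 1 in 20 groups, and counts with 3 equal libraries are always flagged. The gap was 1 of the range for hairpins antisense to a gene, where 8 had a summit within 5 kb in replicate 1 and 6 in each of the others. It was also 1 for chromosome 4, with 1 hairpin in replicate 3 and 0 in the others, and for the X chromosome, with 12 in replicate 3 and 13 in the others. It was 0.857 for hairpins within 1 kb of a protein-coding start, with 30 in replicate 2, the longest list, and 23, 23 and 24 in replicates 1, 3 and 4.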

How the results depend on the processing

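The count of called hairpins (75) was 43 in the upper 50% of each list, 147 in the longest list of the whole series, and 20, 38 and 114 with windows of 1, 2 and 10 kb; called loci (57) were then 32, 126, 19, 31 and 87. Bound hosts (36) were 92 in the longest list and 59 with a start-site window of 5 kb. The difference between hairpins and protein-coding genes at 5 kb (0.94 points) turned to -3.31 in the conservative list, -11.3 in the longest, -1.03 with at least 2 libraries, -6.03 and -2.32 with windows of 1 and 2 kb, and -0.12 with any annotated start site; the cause was not tested. Leaving out 1 replicate, with 2 of 3 libraries needed, gave 78 to 87 hairpins, 60 to 69 loci and 40 to 47 hosts. A call in at least 3 of 4 libraries always meets that looser rule. These counts could therefore not fall below 75, 57 and 36. The differences were then 0.15 to 1.31 points, and the medians for the highest 20 loci were 89.7 to 90.3 (89.8 in all libraries). Ranked lists gave a median of 98.8. Of 100 alternatives for single loci, 82 stayed within 1 SD, and the other 18 were higher in the ranked lists. Leaving out 1 replicate cannot move the mean of so few libraries by 1 SD. The ranked lists also add many weaker peaks, which raises the percentile of a strong one. These counts therefore do not measure how stable the loci are. Read depth was unknown, so an uncalled hairpin is not shown to be unbound.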
